A study of Rattus norvegicus with 8 samples.

Results

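Kupffer cell identity genes were examined in the livers of male Wistar rats with cirrhosis, which repeated inhalation of the liver toxin carbon tetrachloride (CCl4) had produced. The set names 10 genes by which the resident macrophages of the rodent liver are recognised: Clec4f, Marco, Cd163, Vsig4, Timd4, Cd5l, C1qa, C1qb, C1qc and Folr2. Members were the probe sets for which the platform annotation gives 1 of these symbols and no other. This rule found 8 probe sets of 31042, for 7 of the 10 genes, namely 2 for Cd5l and 1 each for Clec4f, Cd163, C1qa, C1qb, C1qc and Folr2. No probe set was listed under Marco, Vsig4 or Timd4, by symbol or by gene identifier, so these 3 genes were not analysed here.

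Treated livers came from 4 cirrhotic rats labelled as given an antiangiogenic treatment, and vehicle livers from 4 cirrhotic rats labelled as given vehicle, whom the series description calls not treated. All 8 animals inhaled CCl4, and all had phenobarbital, which raises drug-metabolizing enzymes in the liver, at 0.3 g/L in their drinking water. The sources used here give neither the compound nor its dose nor the animals' age, and no liver without cirrhosis was analysed here. The comparison asks how an angiogenesis inhibitor bears on the inflammatory infiltrate, fibrosis and portal pressure of such livers, and here how transcripts of resident macrophages differ with it. RNA from frozen liver was hybridized to Affymetrix Rat2302 arrays, and values are on the log2 scale of robust multi-array average (RMA), a summary of the probes of each probe set, so that a difference of 1 is a 2-fold difference in intensity.

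Kupffer cells sit inside the sinusoids, where they take up particles, dying red cells and complement-coated microbes from portal blood. Resident cells keep their identity through signals from sinusoidal endothelium, stellate cells and hepatocytes, and in injured liver they can be lost and replaced by cells that arise from blood monocytes and acquire the resident programme in part. Of the genes measured, Clec4f is a C-type lectin that in rodents marks Kupffer cells, whereas Cd5l, Cd163, Folr2 and the C1q genes are shared with other tissue macrophages. Whole liver was profiled, so fewer Kupffer cells and less RNA per Kupffer cell cannot be told apart in any value below.

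Of the arrays, treated 3 and vehicle 4 were nearly identical under their different labels. They correlated at r = 0.996 over all probe sets, and the spread of their difference, as a scaled median absolute deviation, was 0.166, where the remaining 27 pairs of arrays had 0.251 to 0.404. Over the 8 member probe sets they lay at most 0.27 apart, whereas in each other pair the largest member difference was between 0.70 and 2.71. Each member is therefore given over 8 arrays and over the 6 arrays without this pair. Bacterial spike-in controls divided the arrays into 3 sets, the first with treated 1 and vehicle 1, the second with treated 2 and 4 and vehicle 2 and 3, and the third with the near-identical treated 3 and vehicle 4. As a check of the labelled tissue, the 8 hepatocyte markers, among them Alb and Ttr, had list means of 12.92 to 13.37 in treated and 13.17 to 13.40 in vehicle livers. The labels do not say more of how the animals were sampled, so spread between arrays is all that the tests measure.

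The 3 C1q genes lie side by side in the rat genome, and their promoters are shown because these genes varied together over the arrays while Clec4f did not. In RefSeq (assembly GRCr8), C1qb, C1qc and C1qa occupy chromosome 5 from 154402276 to 154419933, a span of 17658 bases, with 0 other annotated genes inside it. Promoter windows of 300 bases, from 250 bases before to 50 after the annotated start, were found for 6 of the 7 measured genes, that of C1qc excepted. The windows printed run 5′ to 3′ along the gene. Capitals mark GGAAGT, the core recognised by ETS factors such as Spi1 (PU.1) of myeloid cells, and TGCTGAC, a motif of the Maf family of macrophage transcription factors, each searched on both strands, and capitals that spell the complement (ACTTCC) are a match on the opposite strand.
C1qa promoter, chr5:154419884-154420183, minus strand: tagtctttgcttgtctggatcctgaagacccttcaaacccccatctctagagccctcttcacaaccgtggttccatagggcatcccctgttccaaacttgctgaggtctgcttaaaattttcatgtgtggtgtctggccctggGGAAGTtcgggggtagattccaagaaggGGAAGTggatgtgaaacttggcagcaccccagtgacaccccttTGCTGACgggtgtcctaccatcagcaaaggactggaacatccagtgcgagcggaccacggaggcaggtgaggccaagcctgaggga
C1qb promoter, chr5:154407778-154408077, minus strand: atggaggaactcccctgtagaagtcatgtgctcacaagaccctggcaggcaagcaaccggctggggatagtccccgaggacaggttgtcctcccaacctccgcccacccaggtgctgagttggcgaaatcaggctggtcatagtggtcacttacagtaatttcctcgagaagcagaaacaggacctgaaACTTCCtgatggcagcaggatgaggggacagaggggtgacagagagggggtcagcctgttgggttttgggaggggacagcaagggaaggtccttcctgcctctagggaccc
Clec4f promoter, chr4:117696358-117696657, minus strand: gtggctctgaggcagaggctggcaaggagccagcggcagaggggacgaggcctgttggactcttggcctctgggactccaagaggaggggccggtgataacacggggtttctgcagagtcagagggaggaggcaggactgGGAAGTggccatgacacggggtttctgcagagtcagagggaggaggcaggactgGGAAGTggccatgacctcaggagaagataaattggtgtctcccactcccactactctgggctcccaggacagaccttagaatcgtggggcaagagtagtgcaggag

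GGAAGT stood in 4 of the 6 windows, those of C1qa, C1qb, Clec4f and Folr2, and in 22.6% of all 33469 rat promoter windows of this length. TGCTGAC stood in 1 of the 6, that of C1qa, 36 bases before the start, and in 4.44% of all windows. The motifs did not overlap each other in the printed windows. The Clec4f window holds a direct repeat of 56 bases whose copies start 54 bases apart, so its 2 GGAAGT matches, 110 and 56 bases before the start, lie in copies of 1 sequence. C1qa has its matches 107 and 79 bases before the start, and C1qb has 1, 61 bases before it. Such letter matches describe the sequence and do not show binding.

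C1q chains were lower on average in treated livers, by 1.48-fold for C1qa, 1.71-fold for C1qb and 1.60-fold for C1qc, but the groups overlapped for each and no difference passed the test. Folr2 averaged 1.31-fold lower, Cd163 and Cd5l averaged slightly higher, and Clec4f had nearly equal means (9.29 in treated, 9.32 in vehicle livers). Of the 8 member probe sets, 0 passed an adjusted p of 0.05 in limma with Benjamini-Hochberg adjustment over all 31042 probe sets, as did 0% of all probe sets. At an unadjusted p under 0.05 in limma the members again numbered 0, against 3.93% of all probe sets. The groups were without overlap at 0 member probe sets, against 1.67% of all. Lower means in treated livers were seen at 5 of the 8, or 62.5%, against 45.3% of all probe sets. Over the 6 arrays the members past an adjusted p of 0.05 in limma again numbered 0 (0.00966% of all), those at an unadjusted p under 0.05 numbered 0 (6.52% of all), those without overlap numbered 0 (10.3% of all), and 5 had lower means (44.6% of all). Without treated 1, 4 of the 8 had lower means (46.8% of all) and 0 had an unadjusted p under 0.05 in limma (1.73% of all). The median difference of the 7 genes, each by its brightest probe set, was −0.39, against 0.01 over all 14217 genes.

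**Figure D1:**
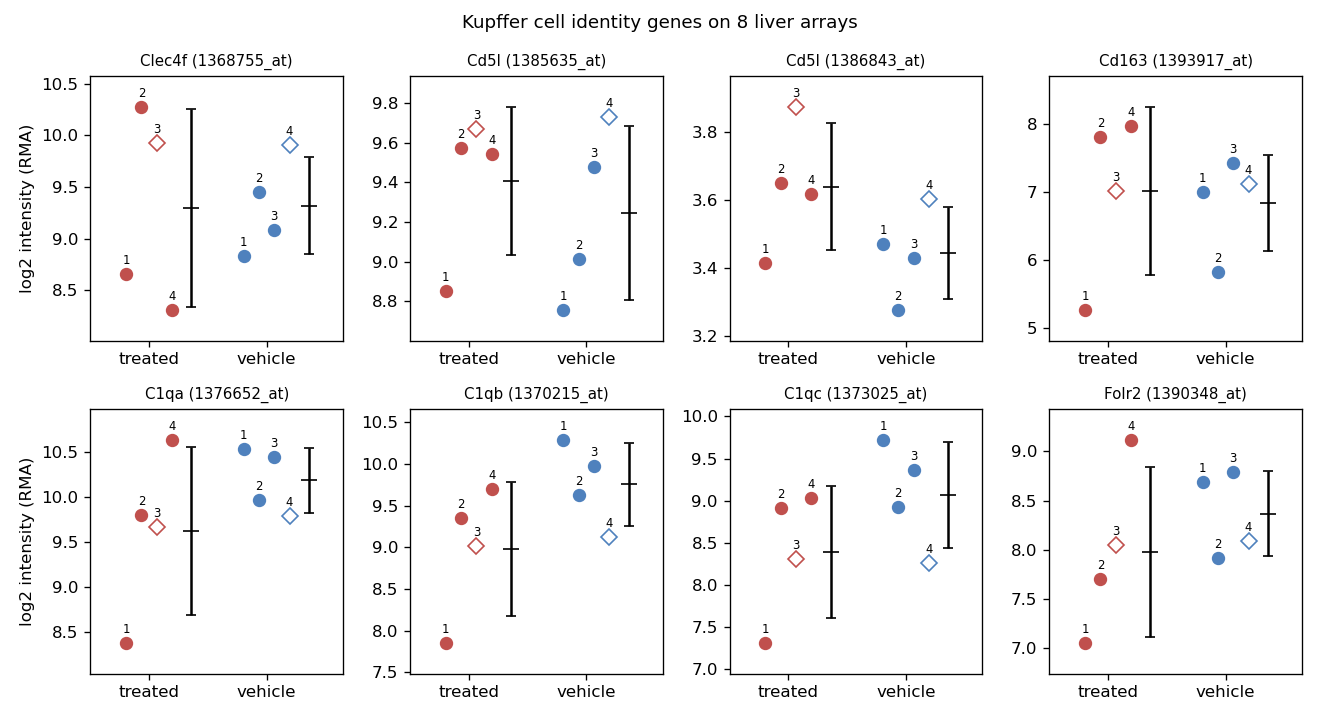
Log2 RMA intensity (vertical axes) of the 8 member probe sets on the 4 treated and 4 vehicle arrays, with array numbers beside the points, open diamonds for the near-identical treated 3 and vehicle 4, and the mean ± SD of each group as a black bar. Treated 1 is the lowest of all 8 arrays for Cd163, C1qa, C1qb, C1qc and Folr2, and the groups overlap in every panel.

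C1qa, C1qb and C1qc encode the chains that assemble into C1q, the recognition unit of classical complement, which macrophages secrete and which also tags apoptotic cells for uptake. C1qa (1376652_at) stood at 8.37, 9.80, 9.67 and 10.64 on treated 1 to 4, against 10.54, 9.97, 10.45 and 9.79 on vehicle 1 to 4. Treated 1 was the lowest and treated 4 the highest of all arrays, so the treated livers spanned more than the whole vehicle range. Its mean was 9.62 ± 0.94 in treated and 10.19 ± 0.36 in vehicle livers (SD, n = 4 each), a difference of −0.57 with a 95% interval from −1.51 to 0.38 (limma adjusted p = 0.979).

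C1qb (1370215_at) stood at 7.85, 9.35, 9.01 and 9.70 on treated 1 to 4, against 10.29, 9.63, 9.98 and 9.13 on vehicle 1 to 4. Here 3 vehicle livers lay above every treated liver but treated 4, which lay above vehicle 2, and the near-identical vehicle 4 lay among the treated. The mean was 8.98 ± 0.80 in treated and 9.76 ± 0.50 in vehicle livers (SD, n = 4 each), a difference of −0.78 from −1.67 to 0.12 (limma adjusted p = 0.979). This was the member with the smallest unadjusted p in limma, 0.0807, and 2189 probe sets of the array had a smaller one.

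C1qc (1373025_at) stood at 7.31, 8.91, 8.30 and 9.03 on treated 1 to 4, against 9.73, 8.92, 9.36 and 8.26 on vehicle 1 to 4. Vehicle 1 and 3 were above every treated liver, and vehicle 4 was below all treated livers but treated 1. The mean was 8.39 ± 0.78 in treated and 9.07 ± 0.63 in vehicle livers (SD, n = 4 each), a difference of −0.68 from −1.63 to 0.27 (limma adjusted p = 0.979). All 3 intervals include 0 and also falls of over 2-fold.

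The C1q differences depended on single arrays, above all on treated 1, the lowest array for each gene. Without this array the difference was −0.15 for C1qa (−0.79 to 0.49), −0.40 for C1qb (−1.06 to 0.25) and −0.32 for C1qc (−1.11 to 0.47), each with a limma adjusted p above 0.99. Leaving out treated 4 instead widened them to −0.91, −1.02 and −0.89, with limma adjusted p = 0.516 for C1qa, 0.515 for C1qb and 0.566 for C1qc. Without treated 3 and vehicle 4 the differences were −0.71, −0.999 and −0.92, with limma adjusted p = 0.866 for C1qa, 0.800 for C1qb and 0.807 for C1qc. In the first spike-in set treated 1 lay 2.16, 2.44 and 2.41 below vehicle 1 for C1qa, C1qb and C1qc, as single arrays. In the second set the mean of 2 treated minus that of 2 vehicle arrays was 0.01, −0.28 and −0.17. In the third, the single arrays treated 3 minus vehicle 4 gave −0.13, −0.11 and 0.04. Because these arrays are near-identical, small differences between them carry no information on the groups. On treated 1 the 3′ Gapdh control probe set was 0.40 above the 5′ one, and on the other 7 arrays it was 0.13 to 0.41 above, the highest on vehicle 1. The part of labelling quality in the result was not tested.

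Folr2 (1390348_at), the beta form of the folate receptor found on tissue macrophages, stood at 7.05, 7.70, 8.04 and 9.12 on treated 1 to 4, against 8.68, 7.92, 8.79 and 8.09 on vehicle 1 to 4. As for C1qa, the lowest and the highest array were treated 1 and treated 4. The mean was 7.98 ± 0.86 in treated and 8.37 ± 0.43 in vehicle livers (SD, n = 4 each), a difference of −0.39 from −1.30 to 0.53 (limma adjusted p = 0.979). It was −0.08 without treated 1 and −0.51 without treated 3 and vehicle 4.

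Cd163 (1393917_at) is the receptor by which macrophages clear haemoglobin bound to haptoglobin. It stood at 5.26, 7.82, 7.01 and 7.97 on treated 1 to 4, against 7.0, 5.82, 7.42 and 7.12 on vehicle 1 to 4. Low values thus occurred in both groups, on treated 1 and on vehicle 2, and treated 2 and 4 were the highest of all. Its range over the arrays, 2.71 or 6.55-fold, was the widest of the 8 member probe sets. The mean was 7.02 ± 1.24 in treated and 6.84 ± 0.70 in vehicle livers (SD, n = 4 each), a difference of 0.18 from −1.16 to 1.51 (limma adjusted p = 0.996). The sign was not stable: the difference was 0.76 (−0.15 to 1.67) without treated 1, but −0.09 without treated 2, −0.14 without treated 4 and −0.16 without vehicle 2. Without treated 3 and vehicle 4 it was 0.27.

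Clec4f (1368755_at) stood at 8.66, 10.28, 9.93 and 8.31 on treated 1 to 4, against 8.83, 9.46, 9.09 and 9.90 on vehicle 1 to 4. The treated livers lay on both sides of the vehicle livers, treated 2 above all 4 of them and treated 1 and 4 below all 4. Treated 3 was also above them, but only by 0.02 over its near-copy vehicle 4. The mean was 9.29 ± 0.96 in treated and 9.32 ± 0.47 in vehicle livers (SD, n = 4 each), a difference of −0.03 from −1.03 to 0.98 (limma adjusted p above 0.99), and its sign turned under several settings. It was −0.04 without treated 3 and vehicle 4 and 0.18 without treated 1. The interval reaches about 2-fold in both directions, so equal levels were not shown. At 9.31 over all arrays the probe set was brighter than 91.4% of probe sets, so dimness does not limit it.

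Cd5l encodes a secreted protein, also called apoptosis inhibitor of macrophage, that Kupffer cells release into blood. Its brighter probe set (1385635_at) stood at 8.85, 9.57, 9.67 and 9.54 on treated 1 to 4, against 8.76, 9.02, 9.48 and 9.73 on vehicle 1 to 4. Of the treated livers 3 lay close together near the top of the vehicle range, and treated 1 stood apart from them. The mean was 9.41 ± 0.38 in treated and 9.24 ± 0.44 in vehicle livers (SD, n = 4 each), a difference of 0.16 from −0.41 to 0.73 (limma adjusted p = 0.981). It was 0.35 without treated 1 and 0.24 without treated 3 and vehicle 4.

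The second Cd5l probe set (1386843_at) was dim, with a mean of 3.54 below 83.2% of the array. It stood at 3.42, 3.65, 3.87 and 3.62 on treated 1 to 4, against 3.47, 3.28, 3.43 and 3.60 on vehicle 1 to 4. Its difference of 0.19 (−0.09 to 0.48, limma adjusted p = 0.979) had the sign of the brighter one, and was 0.17 without treated 3 and vehicle 4. Signal was not tested against background at this intensity.

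**Figure D2:**
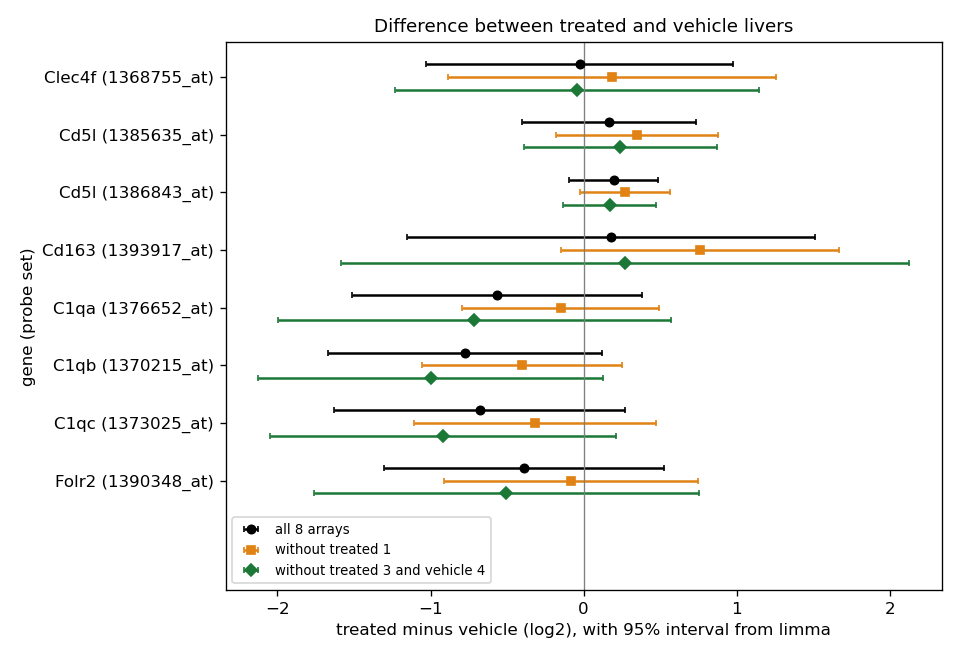
Treated minus vehicle difference on the log2 scale (horizontal axis) with its 95% limma interval for each member probe set (vertical axis), over all 8 arrays, without treated 1, and without the near-identical treated 3 and vehicle 4. Every interval includes 0, and the C1q and Folr2 points lie closest to 0 without treated 1.

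Set against one another, the members did not vary as one. C1qa, C1qb and C1qc correlated in pairs at r = 0.92 to 0.99 over the 8 arrays, and at 0.80 to 0.97 without treated 1. With the near-identical pair averaged into 1 of 7 points the range was 0.93 to 0.99. Folr2 correlated with the C1q genes at 0.78 to 0.93 over 8 arrays. Cd163 lay between, at 0.58 to 0.72 with the C1q genes, 0.69 with Folr2 and 0.67 with Cd5l. Cd5l correlated at 0.52 with Clec4f and at −0.04 to 0.22 with the C1q genes. Clec4f did not track the C1q genes, at −0.13 to −0.07 over 8 arrays and −0.10 to 0.00 over 7 points. Treated 1 was low for Clec4f and the C1q genes alike, and the Clec4f correlations are not given without it. On treated 3 and 4 and on vehicle 1, 3 and 4, Clec4f deviated from its mean in the opposite direction to every C1q gene. Values near 0 thus do not show that Clec4f and the C1q genes were unrelated. These correlations are descriptions of arrays that hold a near-copy and share 1 normalization.

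The split was clearest on single arrays other than treated 1, where all 7 genes were low. Relative to each gene's own mean over the arrays, treated 1 was low for all 7 genes, at −1.42 to −1.53 for the C1q genes, −1.12 for Folr2, −1.67 for Cd163, −0.65 for Clec4f and −0.47 for Cd5l. Treated 4 was high for Cd163 (1.05), Folr2 (0.95) and C1qa (0.74) while it had the lowest Clec4f (−0.997). Vehicle 1 had the highest C1qb (0.93) and C1qc (0.996) together with the lowest Cd5l (−0.57) and a low Clec4f (−0.47). Treated 3 and vehicle 4 shared the opposite arrangement, with Clec4f at 0.62 on treated 3 and 0.60 on vehicle 4 and C1qc at −0.42 on treated 3 and −0.47 on vehicle 4.

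**Figure D3:**
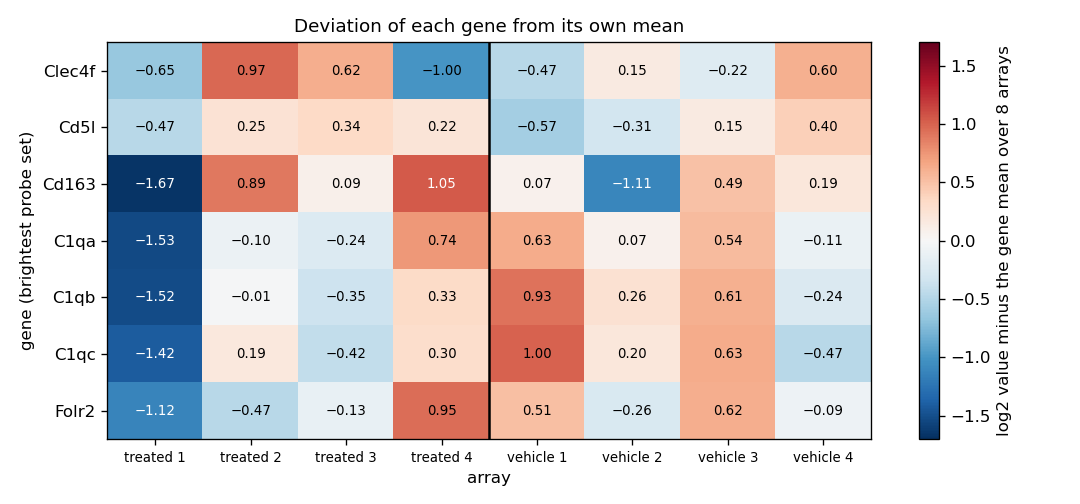
Log2 value minus the gene's own mean over 8 arrays (colour and number in each cell) for the brightest probe set of the 7 genes (rows) on the treated and then the vehicle arrays (columns). Treated 1 is below the mean in all rows, and treated 4 and vehicle 1 combine high C1q values with low Clec4f.

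Genes outside the set whose pattern was most like the mean of the 7 members over the 8 arrays were Clta, a clathrin light chain (1386875_a_at, r = 0.98), Psat1, an enzyme of serine synthesis (1372665_at, 0.97), Tomm20, a mitochondrial import receptor (1398870_at, 0.97), Tmed9 (1388369_at, 0.96) and Golga2 (1386942_at, 0.95), both of the early secretory route. They were the top 5 of 8488 genes with a mean above 6, and with the near-identical arrays averaged the r values were 0.96 to 0.98. The mean of the 14 measured general macrophage genes correlated with that of the members at r = 0.77 over 8 arrays and 0.82 over 7 points. Relative to the gene means, the member mean was −1.20 on treated 1 and −0.14 to 0.40 on the other arrays. Treated 1 thus weighs heavily in all these r values, which are not given without it.

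General macrophage genes were lower on average in treated livers at 13 of 14 measured genes, with a median difference of −0.67 (0.01 over all genes), and 0 passed the limma test. Without treated 1 the count was 12 and the median −0.41. Cd74 (1367679_at), the class II invariant chain, averaged 8.75 ± 0.94 in treated and 10.87 ± 1.86 in vehicle livers (SD, n = 4 each), a difference of −2.11 (−4.05 to −0.18, limma adjusted p = 0.979), and vehicle 4 stood at 8.09 with the treated livers. Lyz2 (1370154_at), lysozyme, averaged 11.26 ± 0.41 in treated and 12.13 ± 0.90 in vehicle livers. Cd14, the lipopolysaccharide co-receptor, was the 1 gene with a higher mean in treated livers (10.75 against 9.87 in vehicle livers) and is named after its values were seen. Recruited macrophage genes had lower means at 13 of 15, with a median of −0.34 (−0.14 without treated 1), among them the adhesion receptor Cd44 (−0.97) and the tetraspanin Cd9 (−1.11), and 0 passed.

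Transcription factors of the Kupffer programme went both ways, with lower means at 7 of 10 measured genes, a median of −0.20 (−0.13 without treated 1) and 0 past the limma test. Id3 (1387769_a_at), a helix-loop-helix regulator required for Kupffer cell development in mice, averaged 8.96 ± 0.36 in treated and 8.44 ± 0.25 in vehicle livers (difference 0.52, 0.08 to 0.97, limma adjusted p = 0.979). Maf (1385243_at) averaged 8.49 ± 0.32 in treated and 9.13 ± 0.59 in vehicle livers (difference −0.64). Id3 is also transcribed in other liver cells, so its level here is that of the tissue. Niche signals and receptors had lower means at 9 of 12 with a median of −0.16 (−0.13 without treated 1) and 0 past the test. Csf1r (1388784_at), the receptor for the growth factor on which macrophages depend, differed by −0.82 (−1.72 to 0.08), and Tgfb1 (1370082_at), a ligand that maintains tissue macrophages, by −0.67 (−1.20 to −0.15).

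Genes that work with Cd163 in haemoglobin and iron handling, and with C1q in classical complement, went both ways within each list. Apoptotic cell clearance, another task of C1q, is given in the next paragraph. For haemoglobin and iron handling, the task of Cd163, 6 of 9 measured genes had higher means in treated livers, with a median of 0.07 and 0 past the limma test. Without treated 1, 4 of the 9 had lower means and the median was 0.17. Lrp1, which takes up haem bound to hemopexin, differed by 0.34 (−0.04 to 0.72) and Blvrb, a biliverdin reductase, by 0.47. Partners and receptors of the classical complement route, the task of C1q, had lower means at 5 of 10, with a median of −0.00 (0.01 without treated 1) and 0 past the test. C5ar1 (1368742_at), the receptor of the C5a fragment, averaged 6.60 ± 0.52 in treated and 7.53 ± 0.36 in vehicle livers (difference −0.93, −1.55 to −0.31, limma adjusted p = 0.979), and Serping1, the C1 inhibitor, differed by 0.15.

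Other scavenger receptors had lower means at 8 of 10 with a median of −0.59 (−0.37 without treated 1), led by Stab2 (−1.09) and Stab1 (−1.23), which sinusoidal endothelium carries, and 0 passed the limma test. Genes of apoptotic cell clearance had lower means at 11 of 13 with a median of −0.19 (12 of 13 and −0.19 without treated 1) and 0 past the test. Among these the bridging protein Mfge8 differed by −0.45 and the annexin Anxa1 by −0.86.

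**Figure D4:**
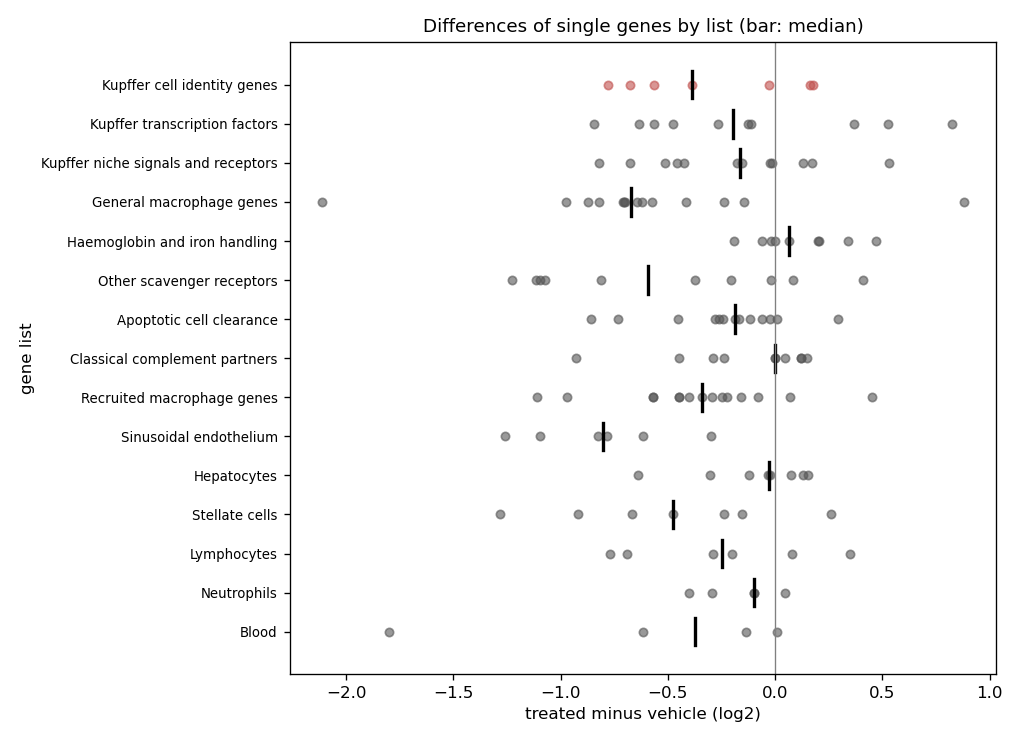
Treated minus vehicle difference on the log2 scale (horizontal axis) of each measured gene, by its brightest probe set, in the Kupffer cell identity set and 14 further lists (vertical axis), with the list median as a black bar. The 7 identity genes lie between −0.78 and 0.18, within the spread of the general macrophage genes below them.

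Markers of most other liver cell types also had lower means in treated livers, with 0 past the test in each list, and their part in the results was not tested. Sinusoidal endothelial markers had lower means in treated livers at 6 of 6 (median −0.80, 0 past the limma test). Without treated 1 all 6 were still lower, with a median of −0.78. Their summed log2 level was 10.74 to 11.21 in treated and 11.25 to 12.05 in vehicle livers. Fcgr2b (1371079_at), the inhibitory Fc receptor that Kupffer cells can also carry, stood at 8.32 to 9.17 in treated and 9.23 to 9.82 in vehicle livers without overlap, with the near-identical treated 3 and vehicle 4 at 9.17 and 9.23, and Lyve1 differed by −1.26. Stellate cell markers had lower means at 6 of 7 (median −0.48, and −0.26 without treated 1; 0 past the test), with summed levels of 10.27 to 11.41 in treated and 10.70 to 12.00 in vehicle livers, Acta2 differing by −0.67 and Col1a1 by −1.28. Lymphocyte markers had lower means at 4 of 6 (median −0.25, 0 past the test), and at 5 of 6 without treated 1 (median −0.24). Their summed levels were 6.95 to 7.72 in treated and 7.21 to 7.96 in vehicle livers, Cd3e differing by −0.69 and Cd4 by −0.77.

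Neutrophil markers had lower means at 4 of 5 (median −0.10, and −0.04 without treated 1; 0 past the limma test), with summed levels of 6.82 to 8.76 in treated and 6.57 to 8.79 in vehicle livers, and the dim Cxcr2 and Csf3r each differed by −0.10. Red cell genes had lower means at 3 of 4 (median −0.37, 0 past the test), and at 4 of 4 without treated 1 (median −0.37). Their summed levels were 8.70 to 9.64 in treated and 9.59 to 11.43 in vehicle livers. Hbb, a globin chain, differed by −1.80 and Alas2, the erythroid enzyme of haem synthesis, by −0.61. Hepatocyte markers had lower means at 5 of 8 (median −0.03, and 0.01 with 3 of 8 lower without treated 1; 0 past the test), with Apoa1 at −0.64 and Hnf4a at 0.15.

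Without the near-identical treated 3 and vehicle 4, the lists had 0 genes past the adjusted threshold in limma, and medians lay further from 0 for most. The median was −0.90 for general macrophage genes, −0.59 for recruited macrophage genes, −0.28 for Kupffer transcription factors and −0.24 for niche signals. It was −0.84 for other scavenger receptors, −0.24 for apoptotic cell clearance, 0.04 for haemoglobin and iron handling and −0.00 for complement partners. Among other cell types it was −1.07 for sinusoidal endothelium, −0.60 for stellate cells, −0.52 for red cell genes, −0.31 for lymphocytes, −0.18 for neutrophils and −0.04 for hepatocytes. Over all 8 arrays, an unadjusted p under 0.05 in limma was reached by 4 of 6 sinusoidal endothelial, 2 of 6 lymphocyte and 2 of 4 red cell genes, against 3.93% of all probe sets. It was reached by 1 of 10 transcription factors, 1 of 12 niche signals, 1 of 14 general and 1 of 15 recruited macrophage genes. It was also reached by 1 of 10 scavenger receptors, 1 of 10 complement partners and 1 of 7 stellate cell genes, and by 0 in the other 4 lists. All had lower means in treated livers but the transcription factor Id3, which was higher. Stab2 counts both as an endothelial gene and as a scavenger receptor. The list counts take each gene by its brightest probe set, whereas the 3.93% covers all probe sets, dim ones included. The share over genes is not given.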

How the data were processed

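Transcripts of 8 livers were measured on Affymetrix Rat2302 arrays, and sample titles gave each array's group and replicate number. The deposited values are log2 intensities that the authors made with affy and RMA, per the submitters' processing notes; no versions are stated there. RMA draws small differences of dim probe sets towards 0. Of 31099 probe sets, 57 controls were left out; 20826 of the other 31042 had 1 gene symbol in the platform annotation. No depth exists for arrays, and 4 arrays a group limit the precision.

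Differences are treated minus vehicle, from limma 3.58.1 (R 4.3.3; lmFit, eBayes, no covariates) with Benjamini-Hochberg adjustment over 31042 probe sets; the code was tested on simulated data. A gene is represented by its brightest probe set with 1 symbol. Members, lists and tests were chosen with earlier results of these data known. Named are all members, the 2 genes with the smallest unadjusted p in each of the 14 other lists, since none passed, and the 5 genes (mean above 6) most correlated with the member mean. Alternatives were renormalization, centring, a filter, variance models, weights, blocks, the mean of all probe sets and left-out arrays. Same-numbered arrays of the groups did not deviate together (r from −0.62 to 0.04 over 4 pairs).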

Additional observations from a re-analysis of the deposited data

Results flagged for a closer look

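Cd5l (1385635_at) stood at 8.85 on treated 1, apart from the other treated arrays, the nearest of which was at 9.54, and the gap took 0.85 of the group's range, above Dixon's 95% critical value for 4 arrays. Of 16 sets of 4 arrays examined (8 probe sets in both groups) this was 1, and chance marks about 1 in 20. Treated 1 was also the lowest of all arrays at 5 of the 8 member probe sets, and the share over all probe sets is not given. This was not particular to the members. General macrophage (7.76), recruited macrophage (6.50), complement partner (9.43), hepatocyte (12.92) and lymphocyte (4.33) genes also had their lowest list mean on treated 1. The other lists had theirs on other arrays.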

How the results depend on the processing

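No member gene passed the adjusted threshold under any of the 18 settings run on probe sets, nor when a gene's probe sets were averaged. Over all probe sets limma called 0 on 8 arrays, 3 without both near-identical arrays and 0 to 11 when 1 array was left out, the 11 without vehicle 4. Member probe sets with lower means in treated livers numbered 5, and 4 to 6 when 1 array was left out. The median of the 7 genes was −0.39, lay between −0.51 and −0.34 under the 11 settings other than leaving out 1 array, and ranged from −0.77 (without treated 4) to −0.08 (without treated 1) when 1 array was left out. C1qa, C1qb, C1qc and Folr2 kept their negative sign and Cd5l its positive sign throughout. The variance models, the filter and the blocks cannot alter these differences, so only the other settings bear on the signs. Without treated 4 the difference was −0.91 for C1qa, −1.02 for C1qb and −0.77 for Folr2. Their unadjusted p in limma was then 0.035, 0.032 and 0.031. It was also under 0.05 for C1qb (0.042) and C1qc (0.049) without vehicle 4, and for C1qb with array weights (0.045). The smallest limma adjusted p of these genes under any setting was 0.515. Cd5l was 0.00 without vehicle 1. Clec4f, at −0.03, turned positive with median centring (0.026) and array weights (0.11), and without treated 1 (0.18), treated 4 (0.30), vehicle 2 (0.02) or vehicle 4 (0.17), and was −0.36 without treated 2. Cd163, at 0.18, was negative without treated 2 (−0.09), treated 4 (−0.14) or vehicle 2 (−0.16), and 0.76 without treated 1. With the replicate number as a block (replicate block) 0 probe sets were called. In this balanced design the 7 differences necessarily equalled the unblocked ones, the C1qb difference being −0.78. The numbers are not known to pair the animals. The cause of these shifts was not tested. No setting gave a value for Marco, Vsig4 or Timd4. With 4 arrays a group, differences of about 2-fold lie within most member intervals.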

Other observations

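Hmox1 and Spic, genes of haem handling by macrophages, differed widely between single livers. They are named after a look at their values. Hmox1, haem oxygenase, stood at 7.95, 11.92, 9.95 and 10.49 on treated 1 to 4, against 10.26, 10.13, 9.25 and 9.84 on vehicle 1 to 4, so the lowest and the highest liver were both treated. Spic, the factor that haem induces in red pulp and other iron-recycling macrophages of mice, stood at 3.46, 4.56, 4.57 and 6.01 on treated 1 to 4, against 5.63, 5.10, 5.06 and 4.71 on vehicle 1 to 4. Cd163, Spic and Hmox1 thus had their lowest value on the same array, treated 1, where Spic lay below the lower quartile of the array (3.84). This was not particular to haem handling. The mean of the 14 general macrophage genes was also lowest on treated 1, at 7.76 against 8.24 to 9.51 on the other arrays. In the iron list, Lrp1 (11.04) and Blvrb (9.95) were instead highest on treated 1. The other measured genes of the haemoglobin and iron list varied less than Hmox1. The widest of them was Blvrb, at 8.69 to 9.95, and Hpx, the haem-binding hemopexin of plasma, ranged only from 13.77 to 14.01.

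Treated 4, which had the lowest Clec4f, had the highest values of 3 of the 15 recruited macrophage genes, Gpnmb, Spp1 and Trem2, which are named after a look at their values. The share of all genes that peak on treated 4 is not given, and a link with Clec4f was not tested. Others of that list peaked elsewhere, with Cd9 at 8.14 on treated 4 against 8.53 on vehicle 3, Lgals3 at 12.32 against 12.39 on vehicle 3, Fabp5 at 10.87 against 11.06 on vehicle 1 and Cd44 at 7.50 against 8.44 on vehicle 3. Gpnmb stood at 11.17, 11.07, 12.08 and 13.44 on treated 1 to 4, against 12.35, 11.54, 12.82 and 12.05 on vehicle 1 to 4. Spp1, osteopontin, stood at 6.96, 7.41, 9.02 and 10.87 on treated 1 to 4, against 9.39, 7.41, 9.78 and 9.04 on vehicle 1 to 4. Trem2, a lipid receptor of macrophages, was 7.02 on treated 4 and 5.56 to 6.22 on the other arrays. The monocyte chemokine Ccl2 spanned 3.80 on treated 1 to 10.48 on treated 2, against 6.09 to 7.02 in vehicle livers.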
